A study of Mus musculus with 12 samples.

Results

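The subject of this report is a group of 39 genes of fibroblasts and of the extracellular matrix other than the collagens, followed across all libraries of an RNA-sequencing experiment on mouse colon with dextran sulfate sodium (DSS) colitis. The members were taken by gene symbol: each of the 39 symbols matched 1 row of the deposited table of 54532 genes, and all 39 were among the 24102 genes that passed the filter on low values (a level of at least 0.1 FPKM, fragments scaled by gene length and library depth, in at least 3 of the 12 libraries) and were tested. The experiment has 4 groups with 3 libraries each, all from total colon RNA of young adult mice on the C57BL/6N background. Tmem173fl/fl mice carry loxP sites in Tmem173, the gene of the cytosolic DNA pathway protein STING, and no Cre (WT in the labels). Tmem173iΔmye mice carry the same floxed alleles and the tamoxifen-inducible Lyz2-Creert2 (CRE in the labels), which the Lyz2 promoter drives in myeloid cells. All 4 groups, the controls included, received 5 tamoxifen injections. Untreated mice drank water, and colitic mice drank DSS, a sulfated polysaccharide that injures the colon epithelium, for 7 days. The replicate numbers are 1, 2 and 3, except in colitic Tmem173iΔmye mice (1, 2 and 5), and values for single libraries are given below in this order. The labels do not say that each library is 1 mouse, so the p-values measure the spread between these libraries, part of which may be technical.

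Fibroblasts are the main makers of the extracellular matrix. In the colon they lie beneath the epithelium, around the crypts, in the submucosa and around vessels, and different subsets carry the receptors Pdgfra and Pdgfrb. Beside collagen, the matrix holds adhesive glycoproteins, elastic fibres on a scaffold of microfibrils, small leucine-rich proteoglycans that bind collagen fibrils, the large proteoglycan versican with hyaluronan, and lysyl oxidases, the enzymes that crosslink collagen and elastin. Tissue injury is known to be followed by new matrix synthesis, and thrombospondins and tenascin are among the proteins laid down in wounds. The comparisons below ask how these genes differed between untreated and colitic colon in each genotype, whether they differed between genotypes, and whether the difference with DSS depended on the genotype.

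The libraries held from 13823237 to 18718915 counts in genes. Tmem173 itself, the targeted gene, was at 24.5, 14.3 and 22.9 CPM (counts scaled to library size) in untreated Tmem173fl/fl libraries, 17.2, 14.6 and 21.3 in untreated Tmem173iΔmye libraries, 42.4, 44.0 and 37.6 in colitic Tmem173fl/fl libraries and 47.8, 23.8 and 31.1 in colitic Tmem173iΔmye libraries. It did not pass the test between genotypes with DSS (log2 fold change -0.28 ± 0.26, adjusted p = 0.602) or without it (-0.21 ± 0.22, adjusted p = 1). These counts are over the whole gene and all cells of the colon, and the floxed exons were not counted separately here. The epithelial marker list of 9 genes, which includes Epcam and Vil1, summed to between 4778 and 15390 CPM in every library, and the smooth muscle list of 10 genes to between 2635 and 4382 CPM, so both main tissue layers of the colon were present. Of a list of 8 pancreas acinar genes, Cela1 was at 47.14 to 1325 CPM in every library. The other 7, which colon should lack, summed to under 1 CPM in 4 libraries, to 24.28 and 75.88 CPM in untreated Tmem173iΔmye replicate 3 and colitic Tmem173iΔmye replicate 2, and to at least 100 CPM in 6. These 6 were untreated Tmem173fl/fl replicate 3 (3087), untreated Tmem173iΔmye replicate 2 (1701), colitic Tmem173fl/fl replicates 1, 2 and 3 (8255, 4202 and 508.8) and colitic Tmem173iΔmye replicate 1 (9935). In 3 of the 4 groups the library with the most acinar RNA was also the one where most members were highest: 24 of 39 in untreated Tmem173fl/fl replicate 3, 22 in colitic Tmem173fl/fl replicate 1 and 26 in colitic Tmem173iΔmye replicate 1, against 11 in untreated Tmem173iΔmye replicate 2. This count was not made over all genes, so it is not known to be particular to the members. Each comparison is therefore also given without the library with the most acinar RNA of each group, a choice made after seeing the data that leaves 2 libraries per group, called below the fit without the acinar-rich libraries. The part of this RNA in the results was not tested beyond these fits.

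Promoter sequences from RefSeq (build GRCm38.p6) were matched by symbol for 23 of the 39 members, too few for a share over the members to be read. The windows of 4 of them are shown because these genes mark the opposite directions of the data: Thbs4 and Ogn were the members that fell in Tmem173fl/fl colon with DSS, and Fbln2 and Twist2 were among those with the largest rise. Each is the 100 bases upstream of the RefSeq start, 5′ to 3′ on the strand of the gene, and capitals mark the GC-box letters GGGCGG in either orientation. The TATA-box letters TATAAA were searched as well, on both strands. Thbs4 lies at chr13:92794819-92794918 (minus strand), Ogn at chr13:49607915-49608014 (plus), Fbln2 at chr6:91212664-91212763 (plus, inside the gene as the deposited table bounds it) and Twist2 at chr1:91801361-91801460 (plus).
Thbs4: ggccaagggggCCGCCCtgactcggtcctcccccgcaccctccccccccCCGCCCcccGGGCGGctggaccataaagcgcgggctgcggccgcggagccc
Ogn: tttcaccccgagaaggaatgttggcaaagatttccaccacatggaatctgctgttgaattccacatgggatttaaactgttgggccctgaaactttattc
Fbln2: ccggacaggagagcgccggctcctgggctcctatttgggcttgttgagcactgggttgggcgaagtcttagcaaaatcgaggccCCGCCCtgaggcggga
Twist2: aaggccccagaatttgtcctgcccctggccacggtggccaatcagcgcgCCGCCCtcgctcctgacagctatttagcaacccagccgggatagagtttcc
GGGCGG stood 3 times in the Thbs4 window, 1 time in those of Fbln2 and Twist2 and not in that of Ogn. None of the 4 windows held TATAAA. Of the 27025 genes in the promoter table, 27.3% had GGGCGG and 6.57% had TATAAA in a window of the same length. Letters of this kind stood in a gene that was lower as well as in genes that were higher with DSS, and a match or its absence says nothing about binding.

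In untreated Tmem173fl/fl colon, levels per gene length ran from 126.8 FPKM for Thbs4 down to 0.02534 FPKM for Has1. Thbs4 (thrombospondin 4, an adhesive glycoprotein), at 127 ± 33.5 FPKM (mean ± SD, n = 3), was followed by the proteoglycan Ogn (49.6 ± 16.1), the matrix glycoprotein Sparc (48.1 ± 6.41) and the tetraspanin Cd81 (44.1 ± 5.62). Thbs4 did not overlap with Ogn, while the ranges of most genes next to each other in this order overlapped (29 of 38 neighbouring pairs), so the order below Thbs4 is not resolved gene by gene. In colitic Tmem173fl/fl colon the order was another: Dcn (293 ± 26.4 FPKM), Sparc (248 ± 40.7) and Thbs1 (221 ± 83.9) had the highest means, with overlapping ranges. Thbs4 was the 25th at 13.6 ± 6.11. The number of members with a mean of at least 10 FPKM was 14 in both untreated groups, 25 in colitic Tmem173fl/fl and 18 in colitic Tmem173iΔmye colon. In the colitic Tmem173iΔmye group Sparc (89.6 ± 5.13), Dcn (83.8 ± 14.7) and Thbs4 (76.2 ± 22.3) had the highest levels and overlapped. Has1, Fmod, Has2, Twist2, Fap and Foxl1 were among the lowest in most groups. The folds of Twist2 and Has1 rest on few reads: Twist2 had 4, 1 and 4 counts and Has1 3, 0 and 2 counts in the untreated Tmem173fl/fl libraries. The lowest count in any library was 8 for Has2, 18 for Fmod, 23 for Foxl1 and 57 for Fap.

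**Figure D1:**
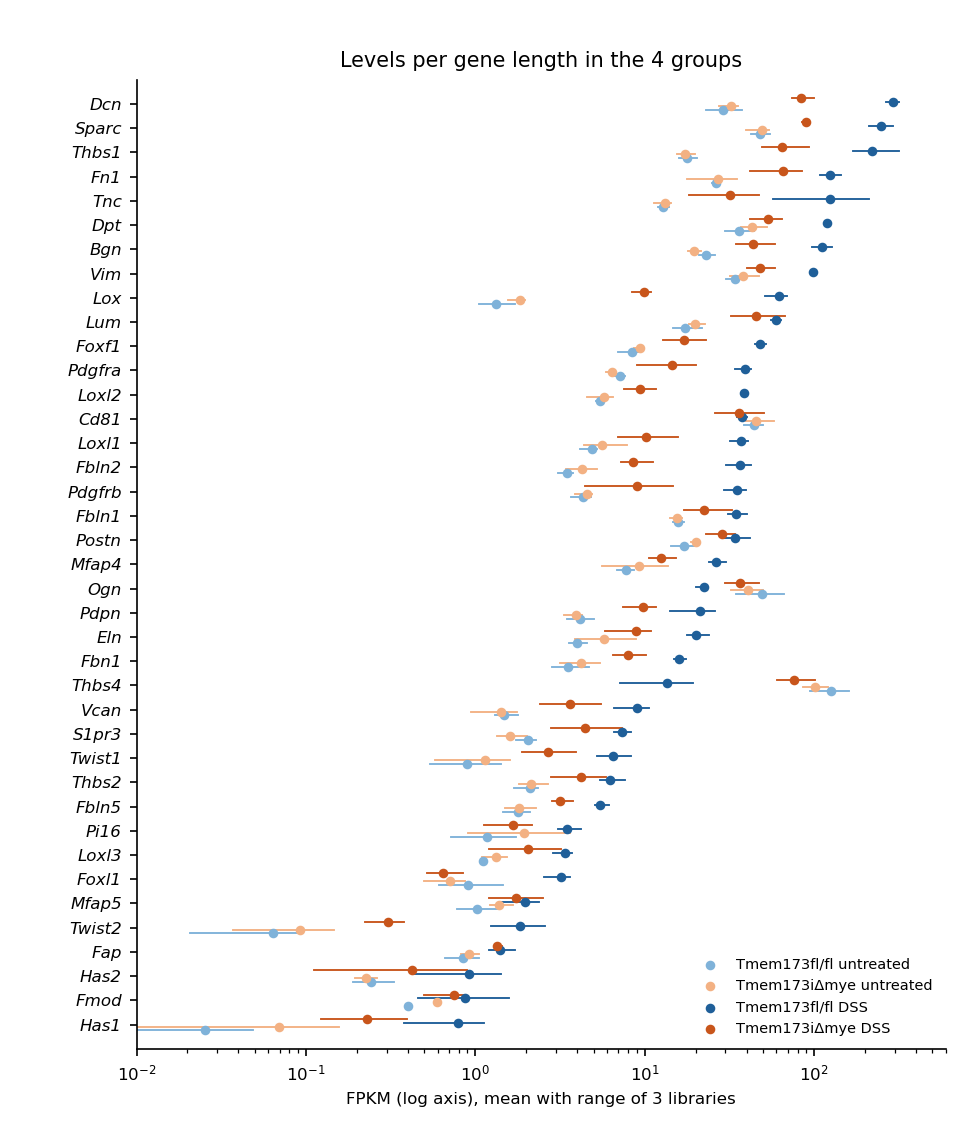
Levels of the 39 members per gene length. The x axis is FPKM on a log scale, points are group means and lines span the 3 libraries (values of 0 are drawn at the left edge), with genes ordered by their mean in colitic Tmem173fl/fl colon; Thbs4 falls from 126.8 FPKM in untreated to 13.57 FPKM in colitic Tmem173fl/fl colon while Dcn reaches 293.4.

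With DSS, 33 of the 39 members rose and 2 fell in Tmem173fl/fl colon, called at an adjusted p under 0.05 and a change of at least 1 on the log2 scale. The crosslinking enzyme Lox rose 47.3-fold (log2 fold change 5.56 ± 0.24, ± SE here and below), the thrombospondin Thbs1 12.5-fold (3.64 ± 0.27), the microfibril-associated fibulin Fbln2 10.7-fold (3.42 ± 0.18), the proteoglycan Dcn 10.2-fold (3.35 ± 0.22) and the receptor Pdgfrb 8.20-fold (3.04 ± 0.18). Thbs4 fell to 0.108 times its untreated level (-3.21 ± 0.35) and Ogn to 0.455 times (-1.14 ± 0.22). Among all genes tested, 14.9% were called higher and 7.61% lower, against 33 and 2 of 39 members. The median log2 fold change of the members was 2.17, against 0.03 over all genes. Both groups of 3 libraries were separate for every member, 36 times with colitic above untreated and 3 times below (23.9% and 25.5% of all genes). The members not called were Fap (0.74 ± 0.26, adjusted p = 0.0529), Cd81 (-0.21 ± 0.14, adjusted p = 0.284), Fmod (1.15 ± 0.48, adjusted p = 0.0910) and Mfap5 (0.95 ± 0.30, adjusted p = 0.0336, under the fold limit). Of the 35 called members, 31 stayed called under every alternative fit tried, and the exceptions were Ogn, Has2, Has1 and Postn. Ogn was under the fold limit without untreated Tmem173fl/fl replicate 3 (-0.86), Has2 had an adjusted p of 0.0526 without colitic Tmem173fl/fl replicate 1, Has1 and Has2 were under the limit with limma on log2(FPKM + 1) (0.78 and 0.60), and Postn (1.0 ± 0.20) was called without untreated replicate 3 or colitic replicates 1 or 3 but not without any of the other 3 (0.80 to 0.99), and in none of the 7 other alternatives with these 6 libraries in (0.935 to 0.9998). Without the acinar-rich libraries, 33 of the 35 and 4187 of all genes were called, and all 35 kept their direction.

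In RNA of whole colon, more cells of a type and more RNA per cell cannot be told apart. Marker lists of other cells moved with DSS in the same mice: 10 of 10 endothelial markers rose (summed CPM 122.1 to 138.9 untreated and 529.7 to 743.1 colitic), 5 of 6 pericyte markers rose (158.0 to 244.3 and 1048 to 1082), 5 of 9 epithelial markers fell (12290 to 15390 and 4778 to 8280), and 1 of 10 smooth muscle markers rose (3094 to 4137 and 2970 to 3459). Of the neutrophil markers 8 of 8 rose (47.44 to 106.8 and 489.7 to 829.6), with a median log2 fold change of 7.15. Of the macrophage markers 7 of 9 rose (197.1 to 244.7 and 821.9 to 1110), with a median of 1.77. Their part in the members' changes was not tested.

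**Figure D2:**
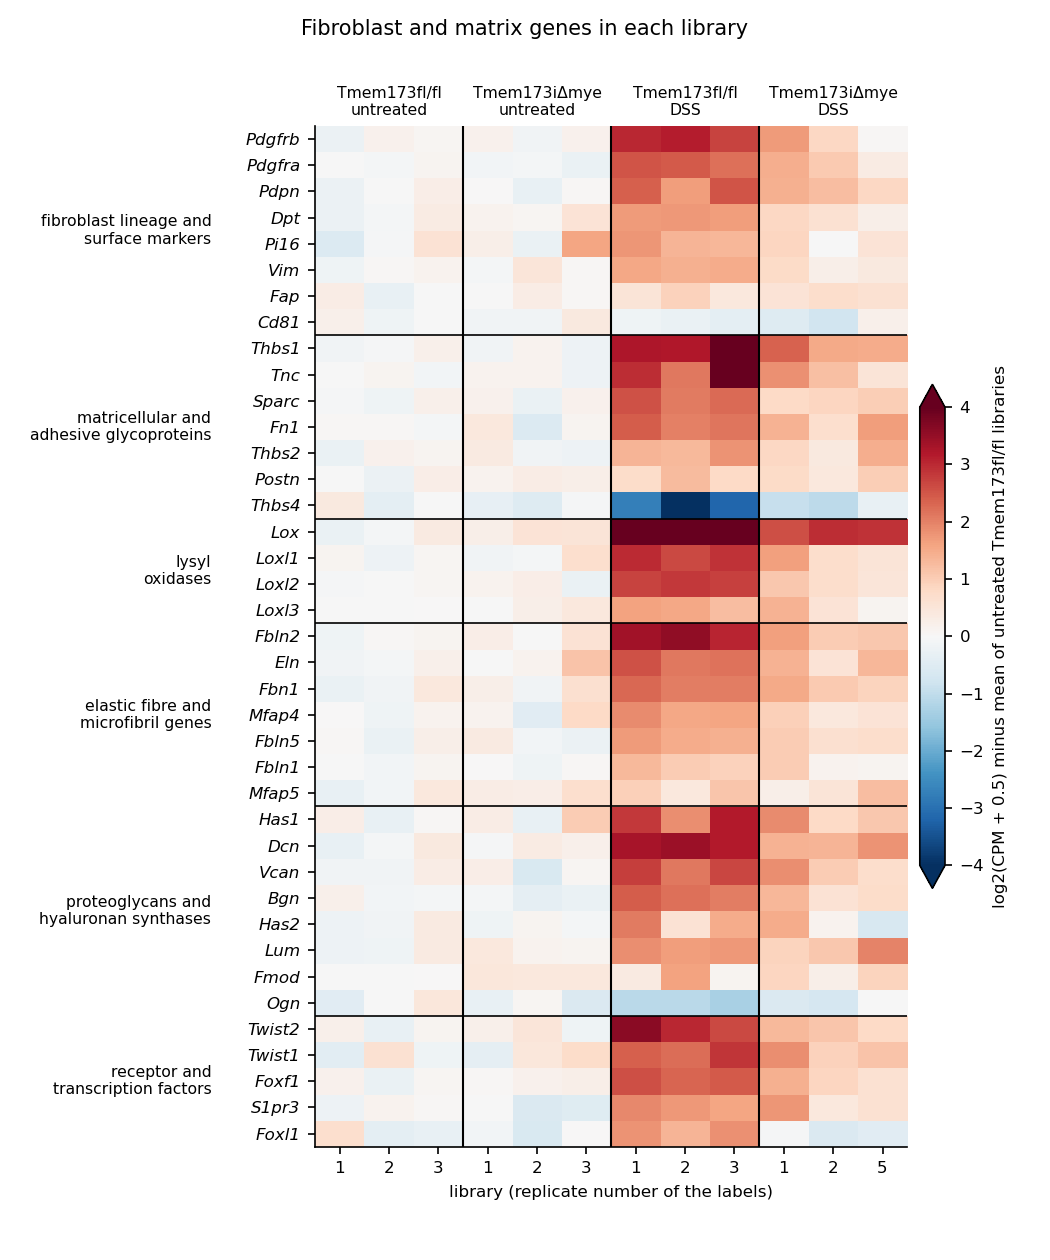
Each of the 39 members (rows, by role) in each of the 12 libraries (columns). Colour is log2(CPM + 0.5) minus the mean of the untreated Tmem173fl/fl libraries, cut at -4 and 4; the colitic Tmem173fl/fl libraries have medians over the members of 2.28, 1.73 and 2.04, the colitic Tmem173iΔmye libraries 1.32, 0.66 and 0.71.

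The lysyl oxidases, which crosslink collagen and elastin, rose as a whole: 4 of 4 were called higher, with a median of 2.89. Lox was at 5.22, 6.02 and 8.45 CPM in untreated Tmem173fl/fl, 7.70, 9.70 and 9.49 in untreated Tmem173iΔmye, 329, 319 and 243 in colitic Tmem173fl/fl and 40.7, 52.9 and 51.5 in colitic Tmem173iΔmye libraries. Every colitic library was thus above every untreated one, and the colitic genotypes did not overlap. Loxl2 was at 28.9, 30.0 and 31.7, 33.6, 36.1 and 25.1, 199, 216 and 202 and 63.6, 49.1 and 42.1 CPM in the same groups, and rose 7.15-fold in Tmem173fl/fl mice (2.84 ± 0.13). Its 3 colitic Tmem173iΔmye libraries lay above the untreated ones by less than the colitic Tmem173fl/fl libraries did. Loxl1 went from 17.8, 14.1 and 17.5 to 133, 105 and 126 CPM in Tmem173fl/fl colon (2.95 ± 0.16) and from 14.8, 15.6 and 26.3 to 51.9, 26.8 and 23.5 CPM in Tmem173iΔmye colon, where the groups overlapped. Loxl3, the lowest of the 4 at 3.396 FPKM in colitic Tmem173fl/fl colon, rose by less (1.62 ± 0.20), and 11.6% of its exon bases are shared with Htra2 on the other strand.

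**Figure D3:**
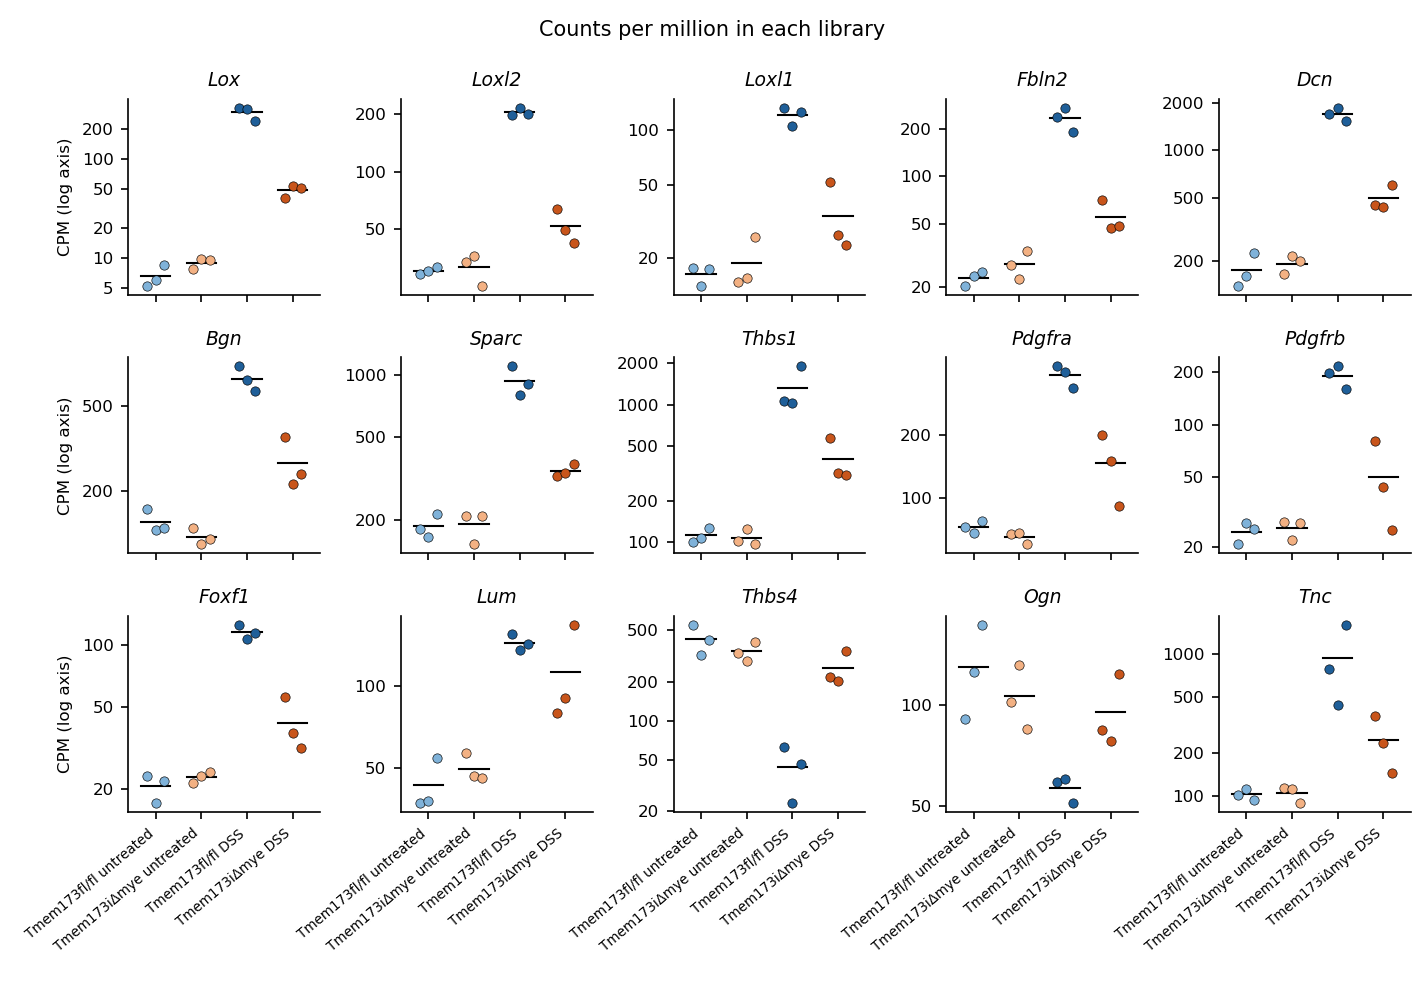
CPM of 15 members in each library (points, in the order of the replicate numbers) with the group mean (bar), on log axes that differ between panels. For Lox the colitic Tmem173iΔmye libraries sit between the untreated and the colitic Tmem173fl/fl libraries; for Thbs4 the colitic Tmem173fl/fl libraries alone are low.

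Of the 7 matricellular and adhesive glycoproteins, which link cells to the matrix, 6 rose and Thbs4 fell. Thbs1, which can bind and activate TGF-beta, was at 100.4, 107 and 126 CPM in untreated and 1056, 1027 and 1902 CPM in colitic Tmem173fl/fl libraries. In Tmem173iΔmye colon it was at 101, 123 and 95.7 CPM untreated and 569.8, 318 and 308 CPM with DSS. Library 3 of the colitic Tmem173fl/fl group stood above the others for Thbs1 and for Tnc, the gene of the wound protein tenascin C, for which this group had 792, 441 and 1619 CPM. The untreated Tmem173fl/fl libraries had 102, 112 and 94.5 CPM of Tnc. Its rise was 9.70-fold (3.28 ± 0.40, or 2.63 without colitic Tmem173fl/fl replicate 3). The untreated and colitic Tmem173iΔmye libraries had 114, 112 and 89.5 and 368, 236 and 146 CPM of it. Sparc, a collagen-binding glycoprotein, went from 182, 166 and 213 to 1094, 794 and 898 CPM in Tmem173fl/fl (2.38 ± 0.18) and from 209.5, 153 and 210.2 to 324, 337 and 370.0 CPM in Tmem173iΔmye colon. Its colitic libraries were above all untreated ones in both genotypes, without overlap between the genotypes. Fibronectin (Fn1), the main adhesive glycoprotein, rose 4.80-fold (2.26 ± 0.16) and Thbs2 3.0-fold (1.58 ± 0.19). Periostin (Postn) lay at the fold limit (1.0 ± 0.20).

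Thbs4 took the other direction. It was at 547, 319.9 and 417 CPM in untreated and 62.7, 23.2 and 46.4 CPM in colitic Tmem173fl/fl libraries, and at 332, 289.9 and 405 CPM in untreated and 219, 201 and 343 CPM in colitic Tmem173iΔmye libraries. The colitic Tmem173fl/fl libraries alone were low, and the colitic Tmem173iΔmye libraries overlapped with their untreated group. Ogn (osteoglycin, a small leucine-rich proteoglycan) had 91.1, 126 and 174 CPM in untreated and 58.8, 59.9 and 50.9 CPM in colitic Tmem173fl/fl libraries, and 102, 132 and 84.6 and 84.0, 78.1 and 124 CPM in the Tmem173iΔmye groups. Here too the colitic Tmem173fl/fl libraries were the lowest of the 12. Beside these genes, 0 of 10 smooth muscle markers were called lower in the same comparison and 1 was called higher. Their log2 fold changes went both ways, from -0.88 to 1.0 with a median of -0.11, and 5 were above 0. Actg2 (470.9 to 759.1 CPM untreated, 285.4 to 377.7 colitic) and Des (505.2 to 737.9 and 334.2 to 493) were lower with separate groups but not called. So were Synpo2 (151.5 to 194.5 and 126.4 to 142.1) and Tagln (7.985 to 10.39 and 5.11 to 6.738). Smtn (122.7 to 141.1 and 177.2 to 203.8), Lmod1 (35.69 to 43.85 and 44.37 to 66.81) and Kcnmb1 (11.43 to 14.53 and 23.75 to 26.64) were higher with separate groups.

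Elastic fibre and microfibril genes rose in 6 of 7 cases, with a median of 1.78. Fbln2 was at 20.2, 23.4 and 24.7 CPM in untreated and 235, 270.2 and 189.7 CPM in colitic Tmem173fl/fl libraries, and at 27.5, 22.3 and 33.8 and 71.2, 46.8 and 48.1 CPM in the Tmem173iΔmye groups. All 4 groups but the untreated pair were separate. Elastin (Eln) rose 5.11-fold (2.35 ± 0.17) and fibrillin 1 (Fbn1), the microfibril backbone, 4.51-fold (2.17 ± 0.20), though 20.1% of the exon bases of Fbn1 are shared with Gm9913 on the other strand. Fbln5 and Mfap4 rose 3.10-fold and 3.43-fold. Fbln1 rose least among those called (1.16 ± 0.15).

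Among proteoglycans and hyaluronan synthases, 6 of 8 rose and Ogn fell. Decorin (Dcn), which binds collagen fibrils, was at 139, 160.4 and 224 CPM in untreated and 1703, 1849 and 1531 CPM in colitic Tmem173fl/fl libraries. In Tmem173iΔmye mice it was at 164, 214 and 198 and 449, 437 and 602 CPM. The colitic libraries of each genotype lay above the untreated ones and apart from each other. Lumican (Lum), whose gene lies 47 kb from Dcn on chromosome 10 on the same strand, rose 3.51-fold in Tmem173fl/fl mice (1.81 ± 0.18). Its colitic libraries had 156, 136 and 143 CPM in Tmem173fl/fl and 79.7, 90.4 and 168 CPM in Tmem173iΔmye mice, where library 5 exceeded all the others, and its untreated libraries had 37.2, 37.9 and 54.4 and 56.6, 46.5 and 45.8 CPM. Biglycan (Bgn) had 164, 131 and 134, 134, 112 and 119, 770.0, 664 and 588 and 357, 215 and 239 CPM in the 4 groups, taken in the order used for Lox, a 4.94-fold rise in Tmem173fl/fl mice (2.30 ± 0.17). Versican (Vcan), the large hyaluronan-binding proteoglycan, rose 6.14-fold (2.62 ± 0.21) and the hyaluronan synthase Has2 3.79-fold (1.92 ± 0.47). Has1, another hyaluronan synthase, had at most 3 counts in each untreated Tmem173fl/fl library and was at least 15.4-fold higher in the colitic ones, measured against a floor of 3 counts in each library, and at this bound it leaves the members' median at 2.17.

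Of the fibroblast lineage and surface genes, 6 of 8 rose, with a median of 1.66. Pdgfra, the receptor of subepithelial fibroblasts, was at 72.9, 68.4 and 78.0 CPM in untreated and 423, 398 and 336 CPM in colitic Tmem173fl/fl libraries. It was at 68.0, 68.7 and 60.4 and 201, 151 and 92.2 CPM in the Tmem173iΔmye groups. Pdgfrb, which pericytes carry too, was at 20.6, 27.3 and 25.4 and 198, 215 and 159 CPM in Tmem173fl/fl libraries and at 27.6, 21.8 and 27.4 and 80.8, 43.7 and 24.8 CPM in Tmem173iΔmye libraries. For both receptors the colitic Tmem173iΔmye libraries spread from near the untreated level (library 5) upwards. Podoplanin (Pdpn), a surface glycoprotein of fibroblasts and lymphatic vessels, rose 5.13-fold (2.36 ± 0.25), the matrix protein dermatopontin (Dpt) 3.37-fold, the intermediate filament gene Vim 2.93-fold and Pi16, a marker of adventitial fibroblasts, 2.98-fold. The fibroblast activation protein gene Fap and Cd81, which many cell types carry, were not called, with 7.09, 9.61 and 6.74 and 114, 108 and 99.4 CPM in colitic and 6.13, 3.86 and 4.82 and 148, 115 and 128 CPM in untreated Tmem173fl/fl libraries.

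All 5 receptor and transcription factor genes rose, with a median of 2.54. The forkhead factor Foxf1, a regulator of gut mesenchyme, was at 23.2, 17.2 and 22.0 CPM in untreated and 125, 107 and 114 CPM in colitic Tmem173fl/fl libraries, and at 21.5, 23.3 and 24.2 and 55.7, 37.6 and 31.9 CPM in the Tmem173iΔmye groups. Its neighbour Foxl1, a marker of subepithelial telocytes that starts 39.8 kb from the end of Foxf1 on chromosome 8, had 4.09, 1.69 and 1.82 and 9.48, 6.81 and 9.60 CPM in Tmem173fl/fl and 2.12, 1.38 and 2.40 and 2.28, 1.43 and 1.58 CPM in Tmem173iΔmye libraries. Colitic Tmem173iΔmye libraries overlapped with the untreated ones for Foxl1 and not for Foxf1. Twist1 and Twist2, basic helix-loop-helix factors of mesenchyme, rose 7.27-fold (2.86 ± 0.36) and 28.3-fold (4.82 ± 0.51). The fold of Twist2 starts from 0.303, 0.0677 and 0.250 CPM, and 46.5% of its exon bases are shared with the antisense gene Gm29100, whose reads cannot be told from those of Twist2 where strand is not recorded. The sphingosine 1-phosphate receptor S1pr3 rose 3.64-fold (1.86 ± 0.18).

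Other genes of the same kind, from a list that holds no member, gave 42 of 60 non-collagen matrix genes higher and 2 lower (median 1.79), led by the basement membrane gene Lama1 (4.54 ± 0.21), Smoc1 (4.42 ± 0.19) and Spon1 (4.41 ± 0.23), with Hmcn1 (-1.66 ± 0.19) and Nov (-1.51 ± 0.31) lower. Of 22 other fibroblast regulators and markers, 16 rose and 1 fell (median 1.85). The epithelial to mesenchymal transition factor Snai1 (4.08 ± 0.30), the gelatinase Mmp2 (3.98 ± 0.20) and Snai2 (2.35 ± 0.32) led, and Ly6a fell (-1.73 ± 0.28).

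In Tmem173iΔmye colon 5 of the 39 members rose and 0 fell with DSS: Lox 5.38-fold (2.43 ± 0.22, adjusted p = 0.000769), Thbs1 3.73-fold (1.90 ± 0.27), Dcn 2.57-fold (1.36 ± 0.22), Pdpn 2.46-fold (1.30 ± 0.27) and Bgn 2.22-fold (1.15 ± 0.23). They come from the lysyl oxidases, the adhesive glycoproteins, the proteoglycans and the surface markers. The count moved with the fit: DESeq2 and edgeR without the filter on low values each called 11 members, and 1 edgeR fit of all 12 libraries called 10. A block for the replicate number gave 15, and limma on log2(FPKM + 0.1) or log2(FPKM + 1) called 1. The blocked fit rests on replicates 1 and 2, since replicates 3 and 5 have no partner in this comparison. Over all genes 1.48% were called higher and 0.597% lower. The members' median log2 fold change was 0.85, against 0.02 over all genes, and 34 of 39 had a value above 0. In 23 members every colitic library was above every untreated one (12.1% of all genes), and in 0 members below (9.41%). Thbs4 (-0.43 ± 0.25, adjusted p = 0.456) and Ogn (-0.16 ± 0.24, adjusted p = 0.806) were not called, and their groups overlapped. The count depended on single libraries: without untreated Tmem173iΔmye replicate 1, 2 or 3, 1 member (Lox) was called each time, and without colitic Tmem173iΔmye replicate 1, 2 or 5 the count was 4, 5 and 13. Calls over all genes in these fits are not given here, so the counts do not show whether the members differ from other genes in this. Lox was called under every alternative but 1. Without the acinar-rich libraries edgeR called 0 members and 0 genes, while 16 members and 2301 of all genes had an unadjusted p under 0.05. In that fit the members' median was 0.60 and Lox was at 2.60 (adjusted p = 0.117).

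Among the members with values above 1 that missed the threshold in these mice were S1pr3 (1.45 ± 0.38, adjusted p = 0.0896), Vcan (1.33 ± 0.33, adjusted p = 0.0758), Fn1 (1.26 ± 0.32, adjusted p = 0.0768), Tnc (1.25 ± 0.31, adjusted p = 0.0712), Lum (1.18 ± 0.28, adjusted p = 0.0630) and Pdgfra (1.17 ± 0.27, adjusted p = 0.0549).

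Of the other matrix genes 7 of 60 rose, among them Lama1 (3.18 ± 0.61), Mgp (2.27 ± 0.25), an inhibitor of calcification, and Spon1 (1.95 ± 0.36), and of the other fibroblast genes 3 of 22, Zeb1 (1.21 ± 0.24), Ddr2 (1.12 ± 0.21), a collagen receptor, and Serping1 (1.04 ± 0.22). Markers of other cells moved with DSS in these mice as well: 5 of 8 neutrophil (summed CPM 46.70 to 82.63 untreated and 209.2 to 335.8 colitic), 2 of 6 pericyte (154.5 to 308.6 and 533.3 to 594.5), 2 of 5 enteric glia (14.60 to 15.71 and 30.04 to 45.66) and 1 of 9 macrophage markers (210.4 to 303.2 and 268.1 to 648.5) rose. Of 10 endothelial markers 0 were called, but all 10 had a log2 fold change above 0, with a median of 0.90 beside the members' 0.85 (133.0 to 158.2 and 218.1 to 392.3 CPM). Of 9 epithelial (13180 to 15260 and 10110 to 12700) and 10 smooth muscle markers (3821 to 4382 and 2635 to 3551) 0 were called, while 1 of 6 colonocyte markers fell. Their part in the members' changes was not tested.

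**Figure D4:**
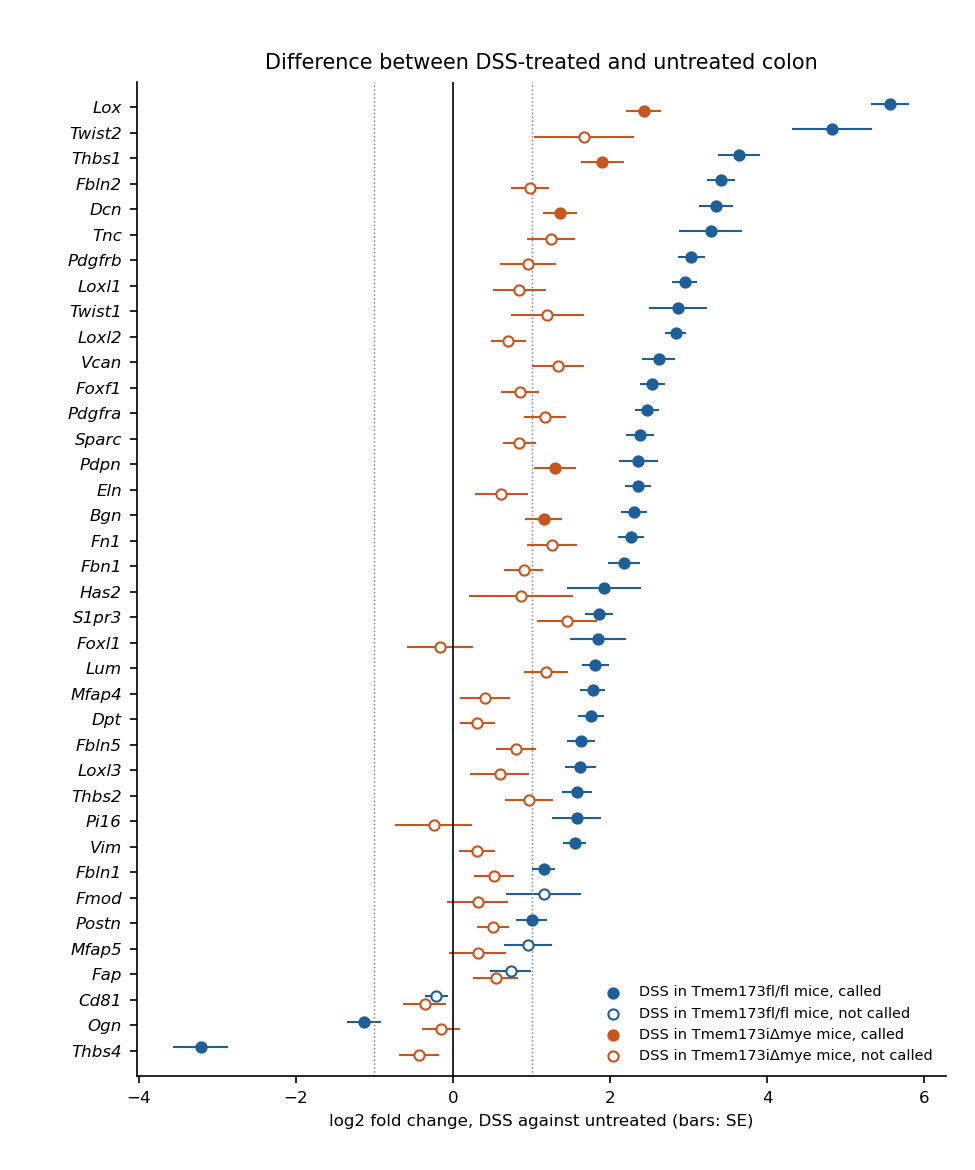
Log2 fold change of DSS against untreated colon for 38 members in each genotype, with bars of 1 SE, from edgeR; Has1 is left out because its untreated Tmem173fl/fl libraries are at the floor. Filled points are called, dotted lines mark the fold limit; without the deletion Lox lies at 5.56 and Thbs4 at -3.21, and with it at 2.43 and -0.43.

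The 3 colitic Tmem173iΔmye libraries did not form a tight group. Relative to untreated Tmem173fl/fl colon, the median over the members on the log2 scale was 1.32, 0.66 and 0.71 in replicates 1, 2 and 5, against 2.28, 1.73 and 2.04 in the colitic Tmem173fl/fl libraries and between -0.09 and 0.14 in the untreated libraries of both genotypes. Replicate 1, which had 9935 CPM of acinar genes other than Cela1 against 75.88 and 0.607 in replicates 2 and 5 and the highest macrophage sum (648.5 against 490.7 and 268.1), had the highest value of its group in 26 of 39 members. Of the 39 members, 33, 28 and 27 were above the range of the 3 untreated Tmem173iΔmye libraries in replicates 1, 2 and 5. These counts and the 26 above were not made over all genes. Replicate 5 exceeded the range of the colitic Tmem173fl/fl libraries in Lum, Cd81, Thbs4, Mfap5 and Ogn. Among those that did not exceed the untreated Tmem173iΔmye range there were Pdgfrb, Dpt, Vim, Loxl1 and Loxl3. The median coefficient of variation over the members was 29.9% in this group, against 15.8% in colitic Tmem173fl/fl libraries and 16.5% and 18.2% in the untreated groups of the 2 genotypes, and it was larger than in colitic Tmem173fl/fl libraries for 29 of 39 members. The larger spread was not limited to the members. Over the tested genes with enough counts, a chi-square per gene between pairs of libraries was 73.05 to 130.2 in this group. It was 31.98 to 61.19 in colitic Tmem173fl/fl libraries and 32.07 to 41.78 in the untreated groups.

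Between untreated Tmem173iΔmye and Tmem173fl/fl colon, 0 of 39 members were called by edgeR, 0 had an unadjusted p under 0.05, and adjusted p was 1 for each. Over all genes 0% were called, with 720 at an unadjusted p under 0.05, and DESeq2 called 8 genes and 0 members. The members' median log2 fold change was 0.11 and every value but that of Has1 lay between -0.36 and 0.72. Fmod (fibromodulin) alone had separate groups (1.36, 1.35 and 1.38 CPM in Tmem173fl/fl and 2.06, 1.98 and 1.98 CPM in Tmem173iΔmye libraries, 0.56 ± 0.35), against 3.66% of all genes with higher and separate values. For Lox the 95% interval of the difference ran from -0.07 to 0.98, and for Thbs4 from -0.73 to 0.10. Without the acinar-rich libraries 0 members and 0 genes were called by edgeR. At an unadjusted p under 0.05 were 6 members and 514 of all genes.

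In colitic colon 16 members were lower and 1 was higher in Tmem173iΔmye than in Tmem173fl/fl mice. Lox was at 0.162 times the Tmem173fl/fl level (-2.63 ± 0.21, adjusted p = 0.00511), Fbln2 at 0.238 times (-2.07 ± 0.24), Loxl2 at 0.25 times (-2.0 ± 0.20), Pdgfrb at 0.260 times (-1.94 ± 0.39) and Dcn at 0.291 times (-1.78 ± 0.23). Thbs4 was 5.75-fold higher (2.52 ± 0.38, adjusted p = 0.0181). Over all genes 1.99% were called lower and 0.822% higher. The median log2 fold change of the members was -1.09, against 0.02 over all genes. In 25 members every colitic Tmem173iΔmye library was below every colitic Tmem173fl/fl library (14.8% of all genes), and in 2, Thbs4 and Ogn, it was above (12% of all genes). Of the 17, 16 stayed called with DESeq2 and all 17 without the filter on low values. The count of 17 became 3 and 10 with limma on log2(FPKM + 0.1) and log2(FPKM + 1), and it depended on single libraries. Without colitic Tmem173fl/fl replicate 1, 2 or 3 it was 2, 9 and 5, and without colitic Tmem173iΔmye replicate 1, 2 or 5 it was 23, 2 and 12. Calls over all genes in these fits are not given here, so the counts do not show whether the members differ from other genes in this. Without the acinar-rich libraries edgeR called 0 members and 0 genes, while 31 members and 4201 of all genes had an unadjusted p under 0.05. In that fit the members' median was -1.18, all 17 kept their direction, and Lox (-2.45) and Loxl2 (-2.22) had an adjusted p of 0.0987. Lox and Loxl2 were called in every other fit, while Thbs4 lost its call with limma on log2(FPKM + 0.1) (2.56, adjusted p = 0.0794), without colitic Tmem173fl/fl replicate 1 (2.88, adjusted p = 0.0647) or 3 (2.57, adjusted p = 0.0583) and without colitic Tmem173iΔmye replicate 2 (2.68, adjusted p = 0.0537).

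By role, 3 of 4 lysyl oxidases were lower: Lox, Loxl2 and Loxl1 (-1.83 ± 0.31), while Loxl3 was not called (-0.71 ± 0.36, adjusted p = 0.307). Of the glycoproteins, Thbs1 (-1.74 ± 0.35) and Sparc (-1.44 ± 0.21) were lower and Thbs4 higher. Tnc had a value of similar size (-1.93 ± 0.50) but an adjusted p of 0.0804, beside its spread of 792, 441 and 1619 CPM in the colitic Tmem173fl/fl libraries. Fn1 (-0.89 ± 0.30, adjusted p = 0.143) and Postn (-0.21 ± 0.24, adjusted p = 0.655) were not called. Of the elastic fibre genes, Fbln2 and Mfap4 (-1.05 ± 0.21) were lower, Fbn1 lay just under the fold limit (-0.97 ± 0.21, adjusted p = 0.0491) and Eln just over the threshold (-1.15 ± 0.26, adjusted p = 0.0549).

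Of the proteoglycans, Dcn and Bgn (-1.32 ± 0.25) were lower. Lum, the neighbour of Dcn, was not called (-0.37 ± 0.28, adjusted p = 0.50), with a 95% interval from -1.0 to 0.27. Ogn (0.75 ± 0.21, adjusted p = 0.0982) had separate groups without a call. Among lineage genes Pdgfrb, Pdgfra (-1.39 ± 0.29), Dpt (-1.13 ± 0.20) and Vim (-1.01 ± 0.21) were lower, and Fap (-0.03 ± 0.26) and Cd81 (-0.04 ± 0.25) had 95% intervals from -0.61 to 0.55 and from -0.61 to 0.54. The factors Twist2 (-2.56 ± 0.41), Foxl1 (-2.29 ± 0.33) and Foxf1 (-1.47 ± 0.23) were lower. For Foxl1 all 3 colitic Tmem173iΔmye libraries lay within the range of the 6 untreated libraries.

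In the other matrix genes 20 of 60 were lower and 0 higher (median -0.98), led by Smoc1 (-2.30 ± 0.45), Spon1 (-2.26 ± 0.42) and Lamb1 (-1.92 ± 0.39), a laminin chain. Of 22 other fibroblast genes 6 were lower, led by Mmp2 (-2.57 ± 0.38), Snai1 (-2.28 ± 0.48) and Islr (-1.62 ± 0.29), and Ly6a was higher (1.67 ± 0.25). Markers of other cells moved in the same comparison. Of 10 endothelial markers 4 were lower (summed CPM 529.7 to 743.1 in colitic Tmem173fl/fl and 218.1 to 392.3 in colitic Tmem173iΔmye libraries), as were 1 of 6 pericyte markers (1048 to 1082 and 533.3 to 594.5), 2 of 9 macrophage markers (821.9 to 1110 and 268.1 to 648.5) and 4 of 8 neutrophil markers (489.7 to 829.6 and 209.2 to 335.8). Of 10 smooth muscle markers 0 were called (2970 to 3459 and 2635 to 3551), as were 0 of 9 epithelial markers, whose sum was higher (4778 to 8280 and 10110 to 12700). In none of these lists was any gene at or under 3 counts in every library. Their part in the members' difference was not tested.

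**Figure D5:**
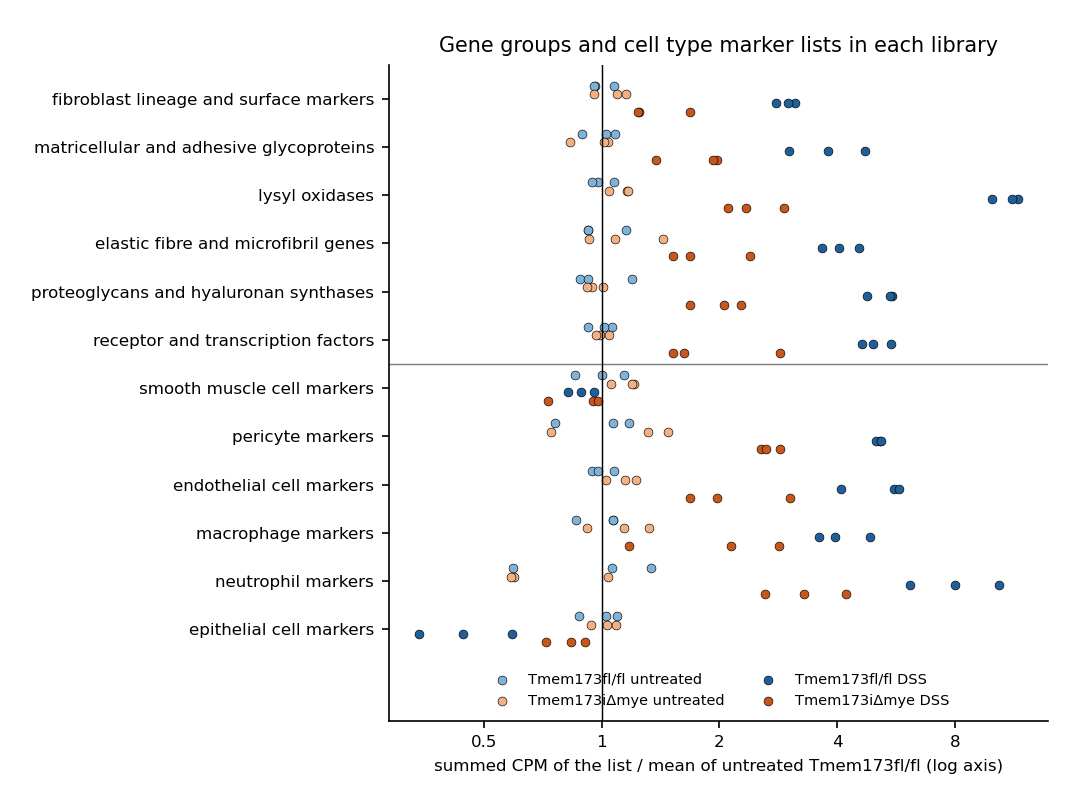
Summed CPM of the 6 role groups of the members and of 6 marker lists in each library, divided by the mean of the untreated Tmem173fl/fl libraries (log axis). The lysyl oxidases reach 583.8 to 677.7 CPM in colitic Tmem173fl/fl and 122.9 to 171.0 CPM in colitic Tmem173iΔmye libraries, from 55.36 to 62.98 CPM in untreated Tmem173fl/fl libraries, while the smooth muscle list stays between 2635 and 4382 CPM.

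Whether DSS changed a gene differently in the 2 genotypes was tested across all 12 libraries, and 12 members were called: 11 with a lower log2 fold change in Tmem173iΔmye than in Tmem173fl/fl mice and Thbs4 with a higher one. The differences of the log2 fold changes were -3.06 ± 0.29 for Lox, -2.36 ± 0.30 for Fbln2, -2.06 ± 0.25 for Loxl2, -2.03 ± 0.40 for Loxl1, -2.01 ± 0.44 for Pdgfrb and -1.91 ± 0.29 for Dcn. They were -1.68 ± 0.39 for Thbs1, -1.61 ± 0.28 for Foxf1, -1.47 ± 0.26 for Sparc, -1.37 ± 0.27 for Dpt and -1.17 ± 0.26 for Vim, and 2.85 ± 0.46 for Thbs4. Over all genes 1.61% were called with a negative and 0.934% with a positive difference, and the members' median was -1.21 against 0.04. The called members include 3 of 4 lysyl oxidases, 3 of 8 lineage genes, 3 of 7 glycoproteins, 1 of 7 elastic fibre genes, 1 of 8 proteoglycans and 1 of 5 receptor and transcription factor genes. The 12 became 20 with DESeq2 and 21 without the filter on low values. Thbs1 and Vim lost their call in 12 of 19 alternatives each, Pdgfrb in 10, Dpt in 4 and Loxl1 in 3. The number of members called here was between 7 and 22 when single libraries were left out: 7 without untreated Tmem173fl/fl replicate 2 or untreated Tmem173iΔmye replicate 3, and 22 without colitic Tmem173iΔmye replicate 1. Calls over all genes in these fits are not given here. Dcn, Fbln2, Foxf1, Lox, Loxl2, Sparc and Thbs4 were called in every alternative fit, including the one without the acinar-rich libraries. That fit called 12 members, 10 of them the same, and 173 of all genes, against 614 in the main fit.

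No difference was called for Lum (-0.56 ± 0.35, adjusted p = 0.428), S1pr3 (-0.34 ± 0.44, adjusted p = 0.733), Postn (-0.42 ± 0.28, adjusted p = 0.459) or Fap (-0.12 ± 0.35, adjusted p = 0.902). Of the other matrix genes 18 of 60 were called with a negative difference and 0 with a positive one (median -1.14), and of the other fibroblast genes 7 of 22 with a negative difference and Ly6a with a positive one (median -0.98). Marker lists of other cells moved in this test too. Called with a negative difference were 4 of 10 endothelial (median -1.45), 2 of 9 macrophage (-0.88) and 1 of 6 pericyte markers (-1.08), and with a positive one 3 of 6 colonocyte (1.34) and 1 of 9 epithelial markers (0.73). Of 8 neutrophil markers 0 were called (-2.11), as were 0 of 10 smooth muscle markers (-0.18). The part of these cells in the members' differences was not tested. Since the colitic Tmem173fl/fl libraries enter the comparison with DSS in their genotype, the comparison of genotypes under DSS and the interaction, these results are not independent of each other.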

How the data were processed

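Total colonic RNA was isolated with TRIzol and lithium chloride, polyA libraries were made with the NEBNext Ultra RNA kit, which does not mark strand, and sequencing was done by a service company. The submitters' processing notes name CASAVA 1.8, fastp, HISAT2 2.0.5, featureCounts 1.5.0-p3, DESeq2 1.20.0 and the build GRCm38/mm10, without parameters. The authors deposited whole-number counts per gene and library, and FPKM values made from them. The table also holds group means and the authors' own DESeq2 comparisons (log2 fold changes and p-values), which were not used.

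Counts were tested with edgeR 4.0.16 in R 4.3.3: TMM scaling, the quasi-likelihood test and Benjamini-Hochberg adjustment over all 24102 genes with at least 0.1 FPKM in at least 3 libraries. Pairwise fits held the 2 groups compared and the fit of the interaction held all 12 libraries. Intervals of 95% used the t distribution with the degrees of freedom of that test. Calls needed an adjusted p under 0.05 and a change, up or down, of 1 or more on the log2 scale. CPM were scaled by TMM over all libraries, and levels between genes were compared in FPKM. The floor was 3 counts in a library. Counting intervals cover counting error only and precision rests on 3 libraries per group. The code was tested on simulated counts. Alternatives used DESeq2 1.42.0, limma 3.58.1 on log2(FPKM + 0.1) or log2(FPKM + 1), another scaling, no filter, other call rules, a block for the replicate number, fits without each library and, added after seeing the data, fits without the library with the most acinar RNA of each group. CPM and counts are given in each library for up to 12 called members in a comparison, those with the largest fold and a mean of at least 1 FPKM, and for others where a result turns on them. Up to 3 called genes in each direction are named from the lists of other genes.

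The members, the gene lists and the tests were chosen with earlier results of these data known. Coordinates are those of the deposited table (GRCm38), and 37 of 39 members have the same bounds in GENCODE vM21, from which exon overlaps were taken.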

Additional observations from a re-analysis of the deposited data

Results flagged for a closer look

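In 12 members the difference between DSS-treated and untreated colon was not the same in the 2 genotypes by the interaction test of edgeR, with 2.55% of all genes passing the same test. The difference of the log2 fold changes, Tmem173iΔmye minus Tmem173fl/fl mice, was -3.06 for Lox, -2.36 for Fbln2, -2.06 for Loxl2, -2.03 for Loxl1, -2.01 for Pdgfrb and -1.91 for Dcn. It was -1.68 for Thbs1, -1.61 for Foxf1, -1.47 for Sparc, -1.37 for Dpt and -1.17 for Vim. Thbs4 had the opposite sign (2.85). Of these, Thbs1 and Vim lost their call in 12 of 19 alternatives each, Pdgfrb in 10, Dpt in 4 and Loxl1 in 3. With 3 libraries in each group, no formal test for single outlying libraries was made.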

How the results depend on the processing

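Members called with DSS in Tmem173fl/fl mice numbered 35 and between 32 and 36 under all alternatives (34 to 36 with single libraries left out). With DSS in Tmem173iΔmye mice the 5 became 11 without the filter, 11 with DESeq2, 10 in one fit of all 12 libraries, 13 with an unadjusted p, and 1 with limma on log2(FPKM + 0.1) or log2(FPKM + 1), and leaving out single libraries gave 1 to 13. Between genotypes without DSS 0 members were called under every alternative. Between genotypes under DSS the 17 became 3 and 10 with limma on log2(FPKM + 0.1) and log2(FPKM + 1), and 2 to 23 with single libraries left out. Of these 17, 16 stayed called with DESeq2 and all 17 without the filter. The interaction's 12 became 21 without the filter, 20 with DESeq2 and 25 with an unadjusted p, and 7 to 22 with single libraries left out. The causes were not tested, and calls over all genes are not given for the fits without single libraries. Leaving out the library with the most acinar RNA of each group, chosen after seeing the data, gave 33, 0, 0, 0 and 12 members in the 5 comparisons, in the order above. The same fits called 4187, 0, 0, 0 and 173 of all genes. No called member changed direction, and 31 of 35, 0 of 5, 0 of 17 and 7 of 12 members stayed called under every alternative. Of all genes, edgeR called 678 under DSS between genotypes, DESeq2 1619 and limma on log2(FPKM + 0.1) 71.

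Libraries with the same replicate number shared only the number: their residuals correlated between -0.17 and 0.20 over pairs. With a replicate block, 34 members were called for DSS in Tmem173fl/fl mice, 15 in Tmem173iΔmye mice, 0 and 15 between genotypes without and with DSS, and 11 for the interaction.

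The lowest members limit the depth: Has1 had 0 to 3 counts and Twist2 1 to 4 counts in the untreated Tmem173fl/fl libraries. For DSS in Tmem173fl/fl mice their log2 fold changes had larger SEs (0.71 and 0.51) than those of the other members.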

Other observations

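Marker lists not described above gave these counts between colitic Tmem173iΔmye and colitic Tmem173fl/fl colon: 0 of 6 mesothelial, 0 of 6 adipocyte, 0 of 5 enteric glia, 0 of 8 pancreas acinar and 0 of 5 skeletal muscle genes were called, and 3 of 6 colonocyte genes were higher. With DSS in Tmem173fl/fl mice, 3 of 5 enteric glia genes, 7 of 9 macrophage genes and 8 of 8 neutrophil genes rose, 4 of 6 colonocyte genes fell and 1 rose, 4 of 6 mesothelial genes rose and 1 fell, 2 of 6 adipocyte genes rose and 1 fell, and 1 of 5 skeletal muscle genes rose and 1 fell. The mesothelial gene that fell was the keratin Krt19 (2066 to 2646 CPM untreated, 828.6 to 1435 colitic). The other mesothelial genes were at 25.45 CPM or less in every library.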
